A study of Mus musculus with 27 samples.

Results

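The genes described here encode the respiratory chain and the ATP synthase of mitochondria. The rule took symbols from the count table of all 27 libraries: the messenger RNAs of the mitochondrial genome (mt-Nd, mt-Co, mt-Atp, mt-Cytb), the nuclear complex I genes (Nduf with 1 of the letters a, b, c, s, v and digits), Sdha to Sdhd, and symbols beginning Uqcr, Cox4 to Cox8 or Atp5. It found 95 of 25192 genes, 13 mitochondrially encoded and 82 nuclear encoded, and left out 1 pseudogene-like name. The nuclear members were 35 of complex I, 4 of complex II, 8 of complex III, 18 of complex IV (with Ndufa4 placed there) and 17 of ATP synthase. The mitochondrially encoded members were 7 of complex I, 1 of complex III, 3 of complex IV and 2 of ATP synthase.

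The libraries came from 3 kinds of cultured mouse cells, 9 libraries each. These were bone marrow derived macrophages (BMDM), embryonic fibroblasts (MEF) and cells labelled aortic endothelial (MAEC), unstimulated (0 h) or given 10 µg/mL ImP for 1 h or 2 h, with 3 libraries in each of the 9 groups. ImP is the submitters' abbreviation, in use for imidazole propionate, which gut bacteria make from histidine. The labels name no strain, age, animal or culture, and no mock-treated group at 1 h or 2 h, so ImP and time in culture cannot be told apart. Since nothing says that replicate libraries came from separate animals or cultures, p-values here measure only the spread between these libraries, which may be technical.

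Complexes I to IV pass electrons from NADH or succinate to oxygen and, except complex II, pump protons across the inner mitochondrial membrane. ATP synthase lets the protons flow back to make ATP. Most subunits are made in the cytosol from nuclear genes and imported. A few core subunits of complexes I, III, IV and the ATP synthase are encoded by the circular mitochondrial genome. It is transcribed as long precursors that are then cut. Complex II is built from nuclear genes alone.

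The macrophage libraries held all 10 macrophage markers of the list at 10 CPM (counts scaled to a common library size) or more. The MEF libraries held 5 of 10 fibroblast markers at that level. The MAEC libraries held 0 of 12 endothelial markers at that level, with 9 of 10 fibroblast and 5 of 6 smooth muscle markers above it. They are called MAEC here by their label alone. A low-input kit was used for MAEC and a directional one for BMDM and MEF, and the RNA kits differed as well, so in every comparison with MAEC the cell type and the library method cannot be told apart. Library totals were 28754034 to 35583478 counts in BMDM, 30554596 to 36489015 in MEF and 18955352 to 61029374 in MAEC. The counts of the first 2 macrophage libraries differed by 5.73 (chi-squared per degree of freedom over genes) at 1 h and 5.69 at 2 h, and the third library differed from each of them by 21.1 and 21.4 at 1 h and 17.8 and 18.9 at 2 h. In the titles, library codes ran in the order 0 h, 1 h, 2 h in every set but the third macrophage one. There the codes of 1 h and 2 h stood in reverse order. Deviations of these libraries from their group means, over genes, correlated at -0.21. Whether their labels were exchanged was not tested. Macrophage values for 1 h against unstimulated are therefore also given without the third libraries at 1 h and 2 h. For 2 h and for 1 h to 2 h, only ranges of the mitochondrial medians over libraries left out in turn are given. Unstimulated libraries also differed, the second macrophage library by 58.1 and 60.5 from the others and the third MAEC library by 93.4 and 64.6.

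Mitochondrial genes lie end to end and some overlap, which limits what a count per gene can say. Their levels are given per gene and not per messenger molecule. The 3′ end of mt-Atp8 and the 5′ end of mt-Atp6, both ATP synthase membrane subunits, share 43 bases (GENCODE M21 on GRCm38, chrM:7927-7969, plus strand), and reads within them belong to both. The shared stretch is printed because both genes are named below, with the start codon of mt-Atp6 in capitals.
mt-Atp8 and mt-Atp6, shared coding bases: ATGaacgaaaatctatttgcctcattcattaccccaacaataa
The complex I genes mt-Nd4l and mt-Nd4 share 7 bases, chrM:10167-10173. The complex I genes mt-Nd5 and mt-Nd6 share 14 bases on opposite strands, chrM:13552-13565, and whether the counting used the strand is not stated. Nuclear copies of mitochondrial sequence were not analysed here.

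Promoters of nuclear members were searched on both strands, from 250 bases before to 50 bases after each RefSeq start (GRCm38.p6), for short motifs of factors known to act on respiratory genes. Entries existed for 68 of the 82 nuclear members. The NRF1 motif, a palindrome of nuclear respiratory factor 1 shown in capitals below, was found in 5 of the 68 (7.35%), against 1.07% of 27025 genes with an entry. The letters CCGGAAG, an ETS-type motif like that of GABP, were found in 17 of the 68, against 9.93% of all genes. The letters AAGATGGC, like a YY1 motif, were found in 10 (14.7%), against 3.19%. At least 1 of these motifs was in 29 of the 68 members (42.6%) and in 13.4% of all genes. A match describes these letters only. Stretches before the start are printed with the motif in capitals, 5′ to 3′ on the gene's strand, for 4 members with the NRF1 motif and for Atp5e and Sdhd, whose values are given below.
Atp5g2 (membrane ring subunit of ATP synthase), chr15:102671060-102671109, minus strand: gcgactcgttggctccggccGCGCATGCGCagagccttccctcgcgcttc
Atp5k (ATP synthase membrane subunit), chr5:108434420-108434469, minus strand: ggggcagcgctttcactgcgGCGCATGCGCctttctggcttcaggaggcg
Cox6a1 (complex IV subunit), chr5:115349091-115349140, minus strand: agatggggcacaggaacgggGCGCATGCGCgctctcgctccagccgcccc
Ndufa11 (complex I subunit), chr17:56717682-56717731, plus strand: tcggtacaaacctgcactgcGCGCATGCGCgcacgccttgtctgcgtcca
Atp5e (central stalk of ATP synthase), chr2:174464177-174464223, minus strand: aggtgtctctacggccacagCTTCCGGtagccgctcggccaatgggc
Sdhd (membrane anchor of complex II), chr9:50603869-50603915, minus strand: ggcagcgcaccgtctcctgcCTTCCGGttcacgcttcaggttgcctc
The ETS-type letters in Atp5e and Sdhd lie on the opposite strand and so read CTTCCGG.

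The balance between mitochondrially and nuclear encoded members differed widely between the cell types. The 13 mitochondrially encoded members took 1.93% to 2.57% of all counts in the 9 BMDM libraries (median 2.32%), 1.37% to 1.92% in MEF (median 1.54%) and 0.827% to 1.38% in MAEC (median 1.12%). The nuclear members took 0.469% to 0.542% in BMDM, 0.666% to 0.833% in MEF and 1.24% to 1.78% in MAEC. The nuclear share therefore ran in the opposite order to the mitochondrial share, and for the nuclear share no library of one cell type overlapped another cell type. The ratio of mitochondrial to nuclear counts, which needs no scaling between libraries, was 3.96 to 5.24 in BMDM, 1.64 to 2.60 in MEF and 0.649 to 0.916 in MAEC, again without overlap. These are shares of messenger RNA in bulk samples, where fewer cells of a kind and less RNA per cell cannot be told apart.

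**Figure D1:**
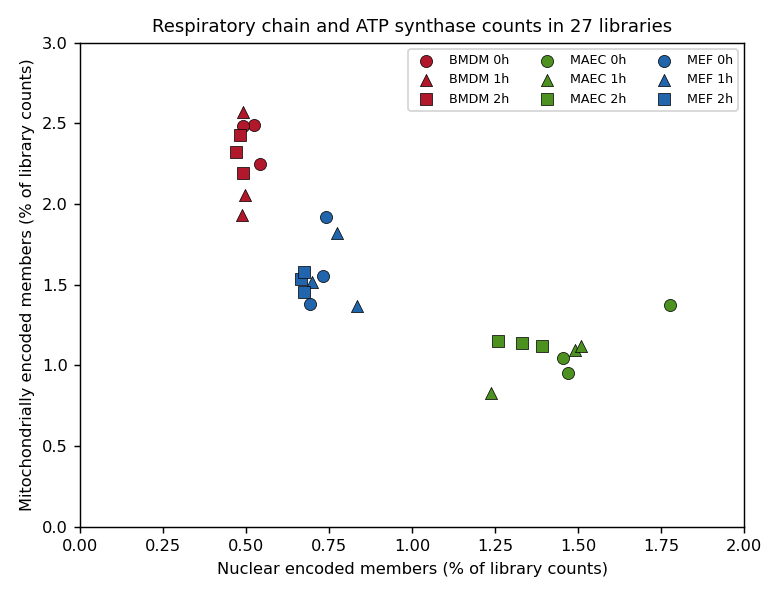
Percent of library counts in the 13 mitochondrially encoded members (y axis) against percent in the 82 nuclear encoded members (x axis), 1 point per library, colour for cell type and shape for time. BMDM points sit at 1.93% to 2.57% on the y axis and 0.469% to 0.542% on the x axis, MAEC points at 1.24% to 1.78% on the x axis.

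Levels per length are given as TPM, from counts divided by exon length and scaled to a common sum. By this count per gene, mt-Co1, the catalytic subunit of complex IV, was the highest mitochondrial member in unstimulated BMDM, 16245 ± 891 TPM (SD, n = 3). The same held in MEF, at 11901 ± 2656. In MAEC it stood at 2693 ± 249 TPM, the sixth of the 13. There mt-Atp6 led at 8572 ± 1497 TPM, followed by mt-Cytb, the cytochrome b of complex III, at 6280 ± 1003 and mt-Atp8 at 5828 ± 1098. The libraries of mt-Cytb (5434 to 7388) and mt-Atp8 (5032 to 7081) overlapped, and those of mt-Atp6 (7461 to 10274) lay just above both. At the bottom, mt-Nd4l was lowest in BMDM at 1899 ± 254 TPM, while mt-Nd3, a small membrane subunit of complex I at chrM:9459-9806, was lowest in MEF at 1434 ± 50.9 and in MAEC at 153 ± 32.7. From the highest to the lowest mitochondrial member, MAEC therefore spanned a wider range than BMDM or MEF.

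**Figure D2:**
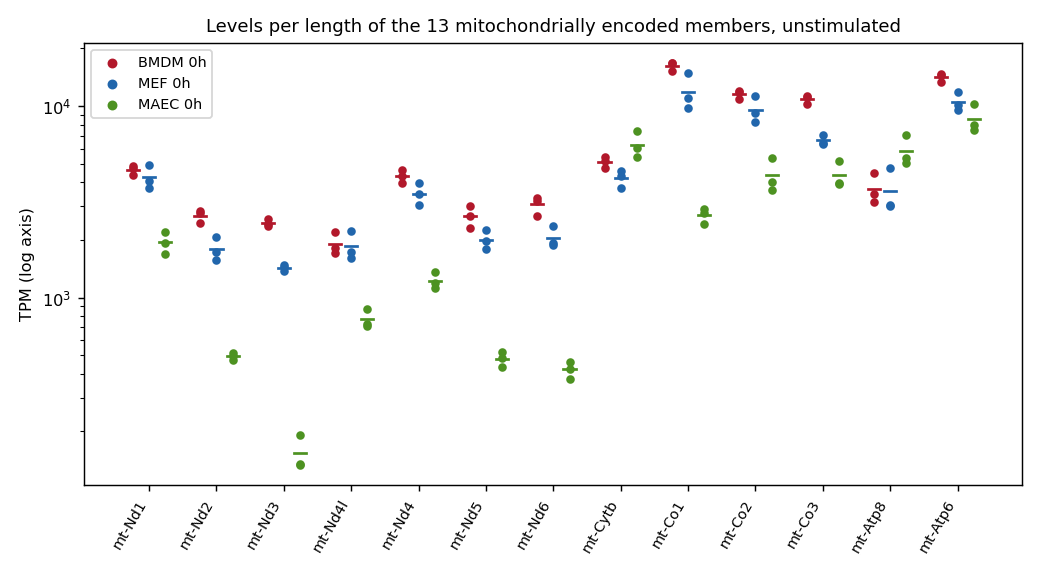
Level per length of each mitochondrially encoded member in unstimulated cells (TPM, log axis); points are libraries, bars the mean of 3, colours the cell types. The MAEC points for mt-Nd3, mt-Nd2, mt-Nd5 and mt-Nd6 lie far below those of BMDM and MEF, and those of mt-Atp8 and mt-Cytb do not.

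Unstimulated macrophages were compared with unstimulated fibroblasts, which share a library kit. All 13 mitochondrially encoded members were higher in BMDM by edgeR's quasi-likelihood test with Benjamini-Hochberg adjustment over all genes tested, by 0.61 to 1.35 on the log2 scale with a median of 0.99. The nuclear members went both ways, 24 higher and 31 lower of the 78 that passed the filter on low counts, with a median of -0.06. Among all 15389 genes tested, 39.1% were higher and 41.6% lower (80.7% either way), and the median was -0.05. With library totals in place of TMM scaling the median of all genes moved to -0.47. The mitochondrial median was then 0.58, with 11 higher and 0 lower, and the nuclear members split into 9 higher and 56 lower with a median of -0.47, while 30.7% of all genes were higher and 51.1% lower.

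mt-Nd3 showed the largest difference of the mitochondrial members. Its scaled levels were 287, 304 and 309 CPM in BMDM and 119, 122 and 112 CPM in MEF, a log2 difference of 1.35 ± 0.18 (SE, edgeR adjusted p = 3.2e-06). mt-Co3, a core subunit of complex IV, stood at 2773, 3195 and 3018 CPM in BMDM against 1169, 1312 and 1175 CPM in MEF, 1.30 ± 0.11 higher. The complex I subunits mt-Nd2 and mt-Nd6 were both 1.16 higher, mt-Nd5 0.99, mt-Nd4 0.88, mt-Nd1 0.71 and mt-Nd4l 0.61. The complex IV subunits mt-Co1 and mt-Co2 were 1.03 and 0.85 higher, mt-Cytb 0.86, mt-Atp6 1.01 and mt-Atp8 0.62. For 12 of the 13 the 3 BMDM libraries all lay above the 3 MEF libraries, against 39.5% of all genes, and mt-Atp8 was the exception. The mitochondrial ribosomal RNAs mt-Rnr1 and mt-Rnr2 were also higher in BMDM, by 1.502 ± 0.298 and 0.69 ± 0.23. Together they took 0.0923%, 0.198% and 0.108% of counts in the BMDM libraries and 0.0885%, 0.118% and 0.0794% in those of MEF. These shares overlapped, and the second BMDM library stood far above the others.

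In complex II 3 of 4 members were higher in BMDM and 0 lower, with a median of 0.64. Among all genes 39.1% were higher and 41.6% lower. Sdha, the flavoprotein that oxidizes succinate (chr13:74322254-74350280, minus strand), stood at 254, 274 and 262 CPM in BMDM and 123, 122 and 130 CPM in MEF, 1.08 ± 0.06 higher. The groups were far apart. The membrane anchors Sdhd and Sdhc were higher by 0.82 ± 0.07 and 0.45 ± 0.07. Sdhb, the iron-sulfur subunit, stood at 109, 108 and 109 CPM against 103, 114 and 99.7 CPM and did not pass (0.04 ± 0.07, edgeR adjusted p = 0.61).

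ATP synthase leaned the other way, with 11 of 17 nuclear members lower in BMDM and 3 higher, against 41.6% and 39.1% of all genes. Atp5b, the catalytic beta subunit, stood at 506, 509 and 491 CPM in BMDM and 817, 785 and 804 CPM in MEF, lower with a log2 difference of -0.68 ± 0.06. Atp5o, the peripheral stalk subunit, was at -0.75 ± 0.07 and Atp5d, the delta subunit of the central stalk, at -0.72 ± 0.10. Atp5md, a small membrane subunit, was at -0.72 ± 0.10. Atp5e, the epsilon subunit of the same central stalk, ran opposite, with 56.9, 60.7 and 53.8 CPM in BMDM and 21.3, 22.8 and 20.5 CPM in MEF, 1.41 ± 0.11 higher. Atp5l was 0.44 ± 0.09 higher and Atp5a1, the alpha partner of the beta subunit, 0.20 ± 0.07 higher, a direction that turned to -0.21 with library totals. Atp5o, Atp5d, Atp5l, Atp5md and Atp5a1 overlap opposite-strand genes, so their counts are uncertain if strand was not used. Of the 3 genes for the identical ring subunit, Atp5g1 (-0.25 ± 0.11) and Atp5g3 (-0.30 ± 0.07) were lower and Atp5g2 did not pass (0.01 ± 0.08, edgeR adjusted p = 0.93).

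On the TMM scale complex I was evenly split, 12 higher and 12 lower of 35, against 39.1% higher and 41.6% lower among all genes. The split depended on the scale. As a share of library counts complex I took 0.130%, 0.125% and 0.116% in BMDM and 0.172%, 0.172% and 0.160% in MEF, without overlap. Ndufv1, the subunit that binds NADH, was the lowest member of all, at 47.3, 43.4 and 42.9 CPM in BMDM against 80.1, 80.9 and 86.4 CPM in MEF (-0.89 ± 0.08). Ndufs1, the large iron-sulfur subunit, was 0.41 ± 0.07 higher, but at -0.00306 with library totals. Ndufb6 was also lower, at -0.67 ± 0.11, and the largest positive differences in complex I were those of Ndufa3 (0.85 ± 0.10), Ndufc2 (0.76 ± 0.11) and Ndufa2 (0.75 ± 0.11). Ndufs1, Ndufb6, Ndufa3 and Ndufa2 overlap opposite-strand genes, as do 26 of the 82 nuclear members in all, so the same doubt over strand applies. Complex III had 1 member higher and 2 lower of 8 on the TMM scale. Its share of counts was 0.0453%, 0.0438% and 0.0417% in BMDM and 0.0614%, 0.0625% and 0.0592% in MEF. Uqcrq, which borders the quinone site, was at -0.72 ± 0.10 and Uqcrc1, a core protein, at -0.47 ± 0.07, while the other core protein Uqcrc2 was at 0.51 ± 0.09. Uqcrfs1, the Rieske iron-sulfur protein, did not pass (0.17 ± 0.09, edgeR adjusted p = 0.084).

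On the TMM scale complex IV had 5 members higher and 6 lower of the 14 tested, against 39.1% and 41.6% of all genes. Its nuclear share of counts was 0.110%, 0.106% and 0.0963% in BMDM and 0.137%, 0.145% and 0.126% in MEF. Its paired isoforms differed. Cox7a2l, which takes part in supercomplex assembly (chr17:83501918-83517330, minus strand), stood at 194, 195 and 169 CPM in BMDM against 82.7, 80.2 and 70.7 CPM in MEF, 1.26 ± 0.07 higher. Its relative Cox7a2 was lower, -0.47 ± 0.08. Within the Cox7a genes, Cox7a2l held 69.3% ± 0.26 of TPM in BMDM, 41.4% ± 0.68 in MEF and 44.1% ± 3.34 in MAEC (SD, n = 3). The muscle-type isoforms Cox6a2 and Cox7a1 were 1.89 ± 0.37 and 1.28 ± 0.44 higher in BMDM, at levels of 1.87 and 1.43 CPM, and Cox6a2 overlaps the opposite-strand integrin gene Itgad. Cox6b1 was 0.63 ± 0.08 and Cox7c 0.49 ± 0.08 higher. Cox5a (-0.59 ± 0.09), Cox7b (-0.62 ± 0.13), Cox6a1 (-0.47 ± 0.09) and Cox6c (-0.27 ± 0.10) were lower. Cox4i1, Cox5b and Cox8a did not pass, at 0.14, -0.16 and -0.04.

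Genes around the chain were taken from lists of assembly factors, electron carriers and regulators. They were tested on the TMM scale alone, where 39.1% of all genes were higher in BMDM and 41.6% lower. Of 45 assembly factors tested 22 were higher and 14 lower in BMDM, led by Coa5, Tmem126b, Coa4 and Surf1, 1.44, 1.98, 3.17 and 1.33 higher. Of 8 electron carriers and subunits outside the rule 2 were higher and 5 lower; cytochrome c1 (Cyc1), cytochrome c (Cycs) and the electron transfer flavoprotein genes Etfa and Etfdh were at -1.11, -1.38, -1.07 and -0.59. Of 22 genes for copying, transcribing and processing mitochondrial DNA 7 were higher and 12 lower. The transcription and packaging factor Tfam was at -0.995 ± 0.078 and the helicase Twnk at -1.38 ± 0.11, with Tbrg4 at -0.96 and Supv3l1 at -1.09. The 13 mitochondrially encoded members were higher. Of 10 regulators of mitochondrial gene expression 2 were higher and 8 lower, and Nrf1, Pprc1, Gabpb2 and Hif1a were all lower (-0.82, -1.19, -0.88 and -1.10).

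**Figure D3:**
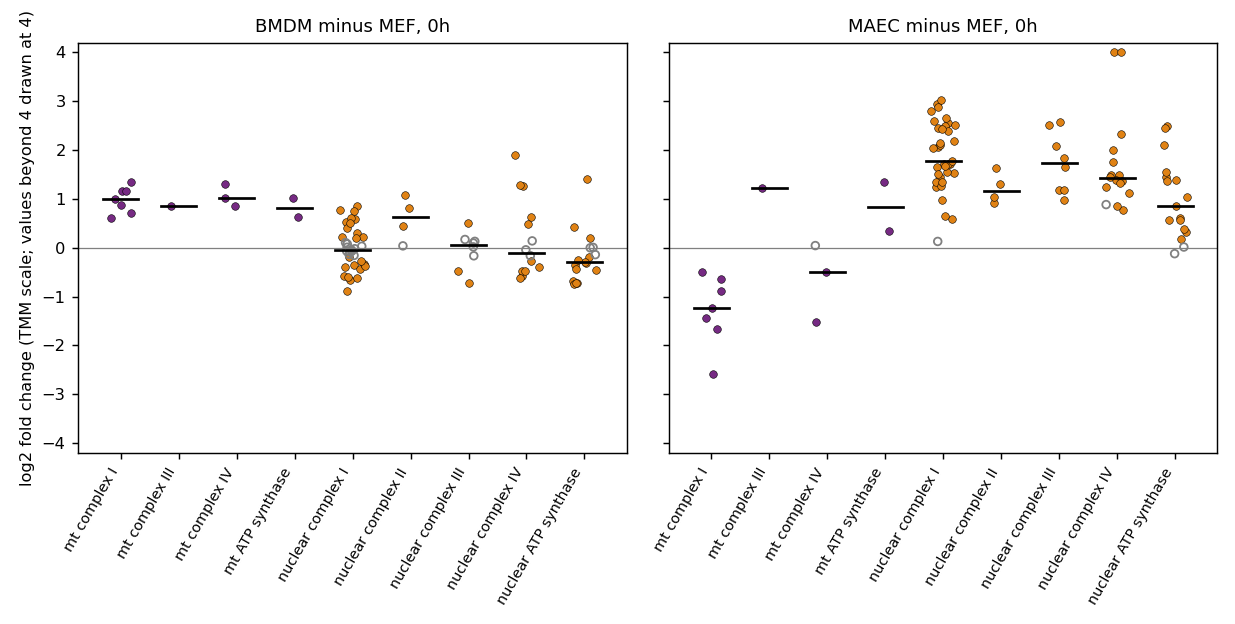
Log2 fold change of each member tested in unstimulated BMDM (left) and MAEC (right) against unstimulated MEF, by complex and coding genome; filled points passed the edgeR test, open points did not, bars are group medians. All 13 mitochondrial points are above 0 on the left; on the right 79 of 80 nuclear points are above 0 and mitochondrial points lie on both sides.

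Unstimulated MAEC differed from unstimulated MEF in nearly every member, with the library kit differing too. Of 80 nuclear members tested 76 were higher in MAEC and 0 lower, with a median of 1.52. The isoforms Cox4i2 and Cox6b2 passed the filter on low counts only through the MAEC libraries and had to come out higher, and without them the count was 74 of 78 and the median 1.49. Of the 13 mitochondrially encoded members 3 were higher and 9 lower, with a median of -0.63. Among all 17038 genes tested 37.2% were higher and 34.9% lower (72.1% either way), and the median was 0.05. When the trend of each library on exon length was removed, the nuclear members were 59 higher and 11 lower (median 0.64, with 38.3% of all genes higher and 33.4% lower) and the mitochondrial ones 0 higher and 12 lower (median -2.21). The lean of the nuclear members to MAEC and of mitochondrial members to MEF was present in both fits, and its size depended on gene length.

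mt-Nd3 stood at 16.9, 15.5 and 27.5 CPM in MAEC and 121, 123 and 113 CPM in MEF, -2.58 ± 0.20 on the log2 scale. mt-Nd6, the light-strand gene, was at -1.66 ± 0.14, mt-Co1 at -1.52 ± 0.22, mt-Nd5 at -1.43, mt-Nd2 at -1.23, mt-Nd4 at -0.88, mt-Nd4l at -0.63, and mt-Co2 and mt-Nd1 both at -0.49. mt-Atp8 (1.35 ± 0.23), mt-Cytb (1.22 ± 0.15) and mt-Atp6 (0.35 ± 0.14) were higher, but with the length trend removed they turned to -1.03, -0.14 and -1.37. mt-Co3 did not pass (0.05 ± 0.14, edgeR adjusted p = 0.78). Members of 1 genome and, but for mt-Nd6, 1 strand thus differed in opposite directions on this scale.

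The nuclear members spread from -0.12 to values set by genes almost absent from MEF. Cox4i2, the hypoxia-linked isoform of the Cox4 subunit (chr2:152754173-152765037, plus strand), had 676 counts over the 3 unstimulated MAEC libraries and 1 count over the 3 MEF libraries, a ratio per total count of 673 with a 95% exact counting interval of 120 to 26621. Cox6b2, known from testis (chr7:4751792-4753094, minus strand), had 3517 counts against 4, a ratio of 875 (342 to 3214). These intervals cover counting error only. In BMDM the same genes had 3 and 10 counts. Even so the usual isoforms dominated in MAEC, since Cox4i2 held 2.59% ± 0.17 of Cox4i TPM and Cox6b2 5.79% ± 0.32 of Cox6b TPM there. With the longest transcript as length these shares were 1.39% and 9.22%. Cox7b2 had 38 counts over the 9 MEF libraries and 0 over the 9 BMDM and the 9 MAEC libraries, and Cox8b had 2 counts in all 27 libraries together, so neither was tested.

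**Figure D4:**
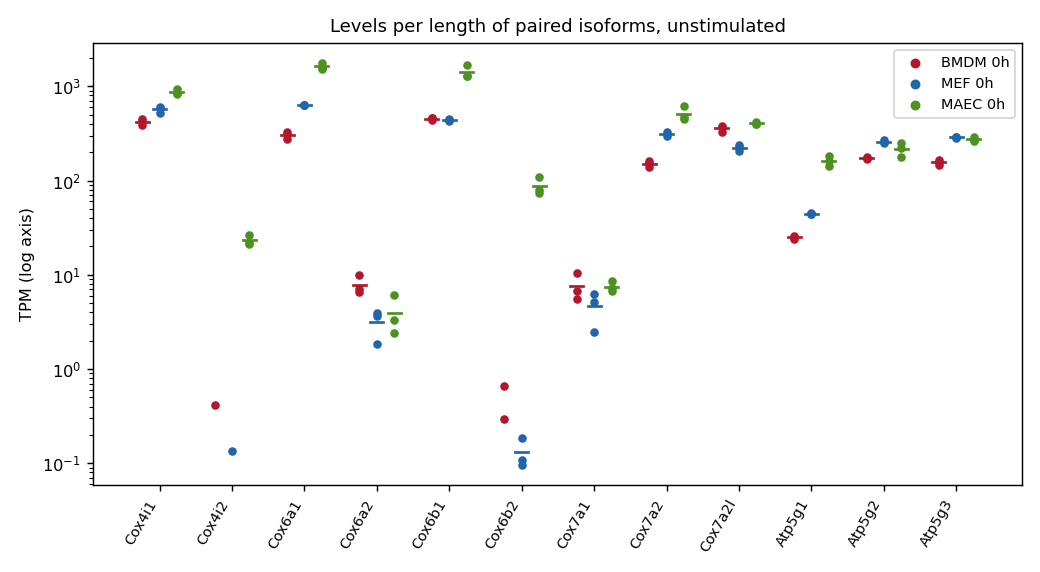
Level per length of paired isoforms in unstimulated cells (TPM, log axis); points are libraries, bars the mean of 3, libraries at 0 are not drawn and their bar is left out. Cox4i2 and Cox6b2 stand near 23.2 and 87.2 TPM in MAEC and below 1 TPM in BMDM and MEF.

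Among other nuclear members, complex I had 34 of 35 higher in MAEC, complex II 4 of 4, complex III 8 of 8, complex IV 13 of 14 without Cox4i2 and Cox6b2, and ATP synthase 15 of 17. Of all genes tested 37.2% were higher. The largest differences outside those isoforms were those of the small complex I subunits Ndufc1 (3.03 ± 0.16), Ndufa2 (2.95 ± 0.15), Ndufa3 (2.87 ± 0.19) and Ndufb6 (2.80 ± 0.14). Of these, Ndufa2, Ndufa3 and Ndufb6 overlap opposite-strand genes, and the kits compared differ. Among the core subunits, Sdha was 0.91 ± 0.09 and Sdhb 1.30 ± 0.10 higher, Uqcrc1 1.19 ± 0.08, Uqcrfs1 0.98 ± 0.11, Cox5a 0.78 ± 0.10, Cox5b 1.12 ± 0.11, Ndufs1 0.65 ± 0.10 and Atp5b 0.18 ± 0.07. Ndufv1 (0.13 ± 0.10), Atp5a1 (-0.12 ± 0.09), Atp5k (0.02 ± 0.23) and Cox6a2 did not pass. The Cox isoforms in common use were higher, with Cox4i1 at 1.25 ± 0.12, Cox6a1 at 2.00 ± 0.11, Cox6b1 at 2.33 ± 0.13, Cox6c at 1.44 ± 0.15, Cox7a2 at 1.36 ± 0.15, Cox7a2l at 1.48 ± 0.10, Cox7b at 0.85 ± 0.16 and Cox8a at 1.39 ± 0.12, and Cox7a1, at 1.49 CPM in MAEC, was 1.33 ± 0.51 higher. Of the ring subunit genes, Atp5g1 was 2.50 ± 0.13 higher, Atp5g3 0.56 ± 0.10 and Atp5g2 0.38 ± 0.13. With the length trend removed, Cox7a1 (-0.50), Cox7a2 (-0.14), Cox7b (-0.46), Cox8a (-0.38), Atp5g2 (-0.64), Atp5g3 (-0.14) and Uqcrfs1 (-0.22) changed direction. Atp5g1 held 24.8% ± 0.66 of the TPM of the 3 ring genes in MAEC, 7.09% ± 0.30 in BMDM and 7.57% ± 0.22 in MEF, and 12.6%, 3.25% and 3.45% with the longest transcript as length.

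The surrounding lists leaned the same way only in part. Among all genes tested 37.2% were higher and 34.9% lower, and the lists were not refitted with the length trend removed. Of 46 assembly factors 37 were higher in MAEC and 3 lower, and all 9 electron carriers and subunits outside the rule were higher, among them Etfb (3.34 ± 0.16) and Ndufab1 (2.76 ± 0.11). Of 12 regulators 1 was higher and 8 lower, with Yy1 at -2.96 ± 0.12 and Gabpb2 at -4.94 ± 0.22. Of 22 genes of mitochondrial DNA expression 8 were higher and 10 lower, with the mitochondrial DNA polymerase Polg at -3.36 ± 0.24 and Slirp at 1.99 ± 0.16.

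No member passed the test for a change with ImP in any cell type at either time. edgeR's quasi-likelihood test with adjustment over all genes called 0 of the 91 members tested in BMDM and in MEF and 0 of the 93 tested in MAEC, and 0 genes of the surrounding lists. DESeq2 and limma-voom called 0 members against the unstimulated libraries too. The same test called 0.0226% of 13251 genes in BMDM at 1 h and 0.0302% at 2 h, and 0% of 14066 genes in MEF and of 14779 in MAEC at either time. The shifts of the members as a group were small and are given here as values. The 1 h and 2 h comparisons of a cell type share its 3 unstimulated libraries and are not independent.

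In BMDM at 1 h, 75 of 78 nuclear members and 13 of 13 mitochondrial members had a negative log2 fold change, with medians of -0.12 and -0.16 against 0.00 for all genes. An unadjusted p under 0.05 was reached by 20 members, all nuclear, and by 693 of 13251 genes. In 21 nuclear members the 3 libraries at 1 h all lay below the 3 unstimulated ones, against 5.61% of all genes, and in 0 members above them, against 4.78%. The smallest p belonged to Atp5e, at 49.8, 53.1 and 47.3 CPM unstimulated and 37.7, 41.6 and 41.1 CPM at 1 h (-0.32 ± 0.08, edgeR adjusted p = 0.90). It was followed by Ndufa3, a complex I subunit, with 33.6, 32.5 and 28.8 CPM against 25.2, 24.1 and 27.7 CPM (-0.30 ± 0.09). Atp5pb, of the peripheral stalk, and Cox6b1 were at -0.18 ± 0.05 and -0.18 ± 0.06. None of these passed.

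The mitochondrial members in BMDM depended on the third library at 1 h. mt-Nd3 stood at 251, 267 and 272 CPM unstimulated and at 168, 202 and 264 CPM at 1 h, and mt-Co3 at 2425, 2798 and 2653 against 1880, 2092 and 2707 CPM. The first pair of treated libraries lay below the unstimulated range and the third within it. Without the third libraries at 1 h and 2 h, the mitochondrial median was -0.31 and the nuclear median -0.14. mt-Nd3 (-0.51 ± 0.08, edgeR adjusted p = 0.0038) and mt-Co3 (-0.40 ± 0.07, edgeR adjusted p = 0.013) then passed, beside 0.928% of 13465 genes, and no nuclear member did. Leaving out the third library at 1 h alone left mt-Nd3 (edgeR adjusted p = 0.046) as 1 of 7 genes called. The libraries left out were picked because their counts differed, which narrows the spread among those kept. These calls therefore cannot count as evidence of a change.

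In BMDM at 2 h, 76 of 78 nuclear members were negative with a median of -0.14, and 28 lay wholly below the unstimulated libraries, against 6.31% of all genes, and 0 above, against 5.24%. An unadjusted p under 0.05 was reached by 28 members, all nuclear, and by 815 genes. The smallest p belonged to Atp5e (42.9, 35.7 and 40.1 CPM, -0.34 ± 0.08, edgeR adjusted p = 0.62), Atp5md (-0.33 ± 0.08), the complex IV subunit Cox7c (-0.27 ± 0.07) and Ndufa3 (-0.34 ± 0.09). The mitochondrial median was -0.06. From 1 h to 2 h edgeR called 0% of genes and 0 members, with 0 members and 218 genes at an unadjusted p under 0.05 and 0 members by DESeq2 or limma-voom, and the medians were 0.09 for the mitochondrial and -0.03 for the nuclear members. At 2 h 4 members lay wholly below 1 h, against 3.75% of all genes, and 0 above, against 3.36%. With the length trend removed the nuclear medians shrank to -0.06 at 1 h and -0.07 at 2 h.

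In MEF the nuclear members leaned up at 1 h and down at 2 h. At 1 h 76 of 78 were positive with a median of 0.12, while 10 of 13 mitochondrial members were negative with a median of -0.13. All 3 libraries lay above the unstimulated ones in 2 nuclear members, against 4.99% of all genes, and below them in 0, against 5.02%. An unadjusted p under 0.05 was reached by 7 members, all nuclear, and by 826 genes. The smallest p belonged to the complex I subunit Ndufb4 (0.28 ± 0.10, edgeR adjusted p = 0.85), Cox7a2 (0.22 ± 0.08), Atp5o (0.19 ± 0.08) and the complex III subunit Uqcr10 (0.25 ± 0.10). The nuclear members' medians by library, as log2 to the unstimulated mean, were -0.06, 0.14 and 0.26 at 1 h. Those of the mitochondrial members were -0.26, 0.10 and -0.18. The rank correlation of the same libraries with exon length was 0.03, -0.37 and -0.44, so the libraries with high nuclear members were those in which short genes ran high. Without the third of these libraries the nuclear median was 0.04.

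At 2 h in MEF 72 of 78 nuclear members were negative with a median of -0.10. Of these members 14 lay wholly below the unstimulated libraries, against 4.49% of all genes, and 0 above, against 4.51%. The rank correlation with exon length was -0.02, -0.05 and 0.21 in the unstimulated libraries and 0.24, 0.31 and 0.24 at 2 h. Short genes in general thus ran low in the 2 h libraries. Uqcrq, at 63.9, 67.7 and 55.2 CPM unstimulated and 52.3, 53.0 and 53.5 CPM at 2 h, was the 1 member at an unadjusted p under 0.05 (-0.24 ± 0.10, edgeR adjusted p = 1.00), beside 342 genes.

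The largest shift in MEF was from 1 h to 2 h, where 76 of 78 nuclear members were negative with a median of -0.23 and 9 of 13 mitochondrial members positive with a median of 0.06. An unadjusted p under 0.05 was reached by 49 members, all nuclear, and by 1709 of 14066 genes. In 37 nuclear members the libraries at 2 h all lay below those at 1 h, against 9.11% of all genes, and in 0 members above, against 9.28%. edgeR called 0% of genes, limma-voom 0 members and DESeq2 2.19% of genes, among them 4 members (Cox4i1, Ndufb9, Uqcr10 and Uqcrq). Cox4i1, the main Cox4 subunit, had 249, 269 and 304 CPM in the 1 h libraries against 231, 211 and 217 CPM in those of 2 h (-0.32 ± 0.09, edgeR adjusted p = 0.20). Uqcrq, Ndufb9 and Atp5e were at -0.35 ± 0.10, -0.37 ± 0.10 and -0.44 ± 0.13. Without the first library at 1 h, 24 nuclear members were called lower, beside 2.54% of 14375 genes. With the length trend removed the nuclear median was -0.10, the mitochondrial one 0.24, and 0 members were called.

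In MAEC at 1 h 73 of 80 nuclear members and 13 of 13 mitochondrial members were negative, with medians of -0.24 and -0.19. In 6 nuclear members the libraries lay wholly below the unstimulated ones, against 4.89% of all genes, and in 0 above, against 5.36%, while 6 members and 733 genes had an unadjusted p under 0.05. Sdhb had the smallest p, at 249, 253 and 311 CPM unstimulated and 211, 228 and 213 CPM at 1 h (-0.32 ± 0.12, edgeR adjusted p = 0.83), before Ndufa2 (-0.41 ± 0.17), the complex III hinge protein Uqcrh (-0.36 ± 0.16) and Sdhc (-0.30 ± 0.14). Without the third unstimulated library the nuclear median was -0.07, the mitochondrial median -0.005 and Ndufa2 at -0.19. Without the first library at 1 h the medians were -0.13 and -0.08. The rank correlation with exon length was -0.10, -0.01 and -0.29 in the unstimulated libraries and 0.40, -0.09 and -0.11 at 1 h. Short genes thus ran high in the third unstimulated library and low in the first at 1 h.

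At 2 h in MAEC 77 of 80 nuclear members were negative with a median of -0.35, and 43 lay wholly below the unstimulated libraries, against 8.48% of all genes, and 1 above, against 8.38%, while the mitochondrial median was -0.02. An unadjusted p under 0.05 was reached by 46 members, all nuclear, and by 1361 of 14779 genes. Sdhb was at 199, 194 and 223 CPM (-0.40 ± 0.12, edgeR adjusted p = 0.54), Uqcrh at -0.50 ± 0.16, Ndufb10 at -0.42 ± 0.14 and Atp5g1 at -0.42 ± 0.14. Without the third unstimulated library the nuclear median was -0.19, Atp5g1 was at -0.23, and the mitochondrial median was 0.17. From 1 h to 2 h edgeR called 0% of genes and 0 members, with 0 members and 293 genes at an unadjusted p under 0.05 and 0 members by DESeq2 or limma-voom. The 13 mitochondrial members were all positive with a median of 0.19, and 6 of them lay wholly above 1 h, against 4.51% of all genes, with 0 members below, against 3.97%. The first library at 1 h was low in mt-Co1 (633 CPM against 1605 and 1606 in the others), and without it the mitochondrial median was 0.06, with 9 of 13 positive, and the nuclear median -0.21.

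The ratio of mitochondrial to nuclear counts in MAEC was 0.649, 0.719 and 0.776 unstimulated, 0.668, 0.736 and 0.742 at 1 h and 0.916, 0.855 and 0.807 at 2 h, so the 2 h libraries lay above all others. In BMDM and MEF the groups overlapped in this ratio. With the length trend removed in MAEC at 2 h, the nuclear median was -0.16 and the mitochondrial median 0.27, and 0 members were called.

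**Figure D5:**
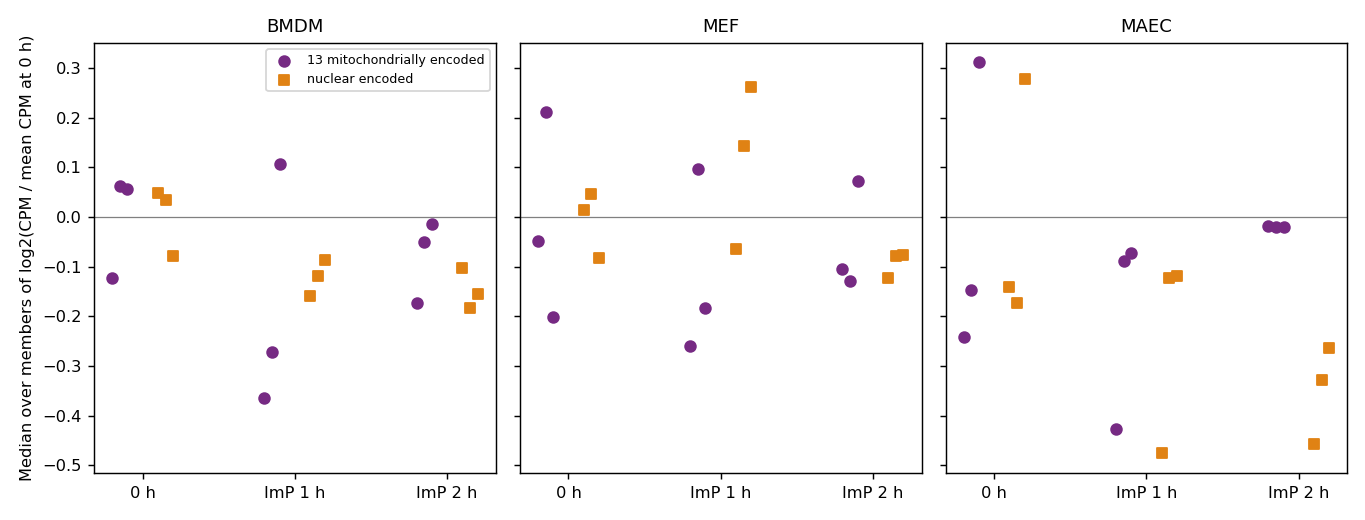
Median over members of log2 of scaled CPM relative to the mean of the unstimulated libraries of the cell type, 1 point per library, circles for the 13 mitochondrially encoded and squares for the nuclear members. In MAEC at 2 h the squares lie at -0.46 to -0.26 and the circles at -0.02; in BMDM the circle of the third library at 1 h lies at 0.11 and the others at -0.36 and -0.27.

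The difference of the ImP change between BMDM and MEF was tested as an interaction. edgeR called 0 of 91 members and 0% of 15389 genes at 1 h and at 2 h, and DESeq2 and limma-voom called 0 members. At 1 h 77 of 78 nuclear members were on the side of a lower change in BMDM, with a median of -0.25, and 26 members had an unadjusted p under 0.05, beside 1205 genes. Atp5e led (-0.62 ± 0.16, edgeR adjusted p = 0.38), then Atp5o (-0.37 ± 0.10), Cox7a2 (-0.42 ± 0.12) and Ndufb4 (-0.56 ± 0.16). The median was -0.13 with the length trend removed. At 2 h it was -0.08, and 0 members reached an unadjusted p under 0.05, beside 539 genes. The differences of MAEC from the other cell types in the ImP change were not tested.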

How the data were processed

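Total RNA was used for 27 libraries, which were sequenced on a NextSeq instrument. The authors deposited expected counts per gene, whole-number in the tables; the submitters' processing notes name cutadapt, FastQC, STAR, RSEM, DESeq2 and R 4.3.2 with the builds mm10 and GRCm38.p6, without their roles. The annotation, the strand setting and any depletion of ribosomal RNA are not given in the sources used here. The deposited counts were tested as they stand by quasi-likelihood in edgeR 4.0.16 (R 4.3.3). Low genes were dropped by filterByExpr (minimum count 10), TMM factors set the scale and robust dispersions were used, with Benjamini-Hochberg adjustment at 0.05 over all genes tested. Each cell type had its own fit of 9 libraries; BMDM against MEF used 18 and MAEC against MEF 27. SE is the log2 fold change divided by the square root of F. Members, motifs and gene lists were chosen with earlier results of these data known. TPM used exon lengths of GENCODE M21, which matched 95 of 95 members, 24506 genes by symbol and 255 by synonym; 431 genes had no match. Genes were named by rule: all mitochondrial members, paired isoforms, core subunits, up to 6 called members a direction, and where none was called, up to 4 by smallest p, here only those at an unadjusted p under 0.05. From other lists up to 4 called genes were named. Further members named in a complex were chosen after their values were seen. Alternatives were DESeq2 1.42.0, limma-voom (limma 3.58.1), RLE scaling, library totals, scaling without mitochondrial genes, other count filters, removal of each library's trend on exon length (lowess, fitted without the mitochondrial members, then applied to them), fits of only the groups compared, a replicate block and leaving out libraries. Some of the fits were also run on simulated counts with known changes. These were drawn independently for each gene and library, so they cannot show how trends shared across a library affect the members. Runs of library codes in the titles were tried as a pairing, but only 4 of 27 same-run pairs had correlated deviations above 0.1 (range -0.21 to 0.19), so libraries were not treated as paired. Of 27 pairs of replicates, none were alike within sampling noise (lowest chi-squared per degree of freedom 5.69).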

Additional observations from a re-analysis of the deposited data

How the results depend on the processing

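Of the 112 results on named genes, refits kept direction and side of the threshold in 2848 cases, lost the call in 60, gained it in 17 and turned the sign in 38. For BMDM at 1 h the number of members called ran from 0 to 1 when libraries were left out in turn, and was 2 without the third libraries at 1 h and 2 h. For MEF from 1 h to 2 h it was 4 with DESeq2 and ran from 0 to 24 over libraries left out, the 24 without the first library at 1 h. Over libraries left out, mitochondrial medians ran from -0.14 to -0.03 for BMDM at 2 h, -0.01 to 0.25 for BMDM from 1 h to 2 h, -0.24 to -0.02 for MEF at 1 h, -0.13 to 0.06 for MEF at 2 h and -0.04 to 0.17 for MEF from 1 h to 2 h. The mitochondrial share in MAEC at 2 h was 1.15% with protein-coding counts as the total. With the longest transcript as length, the mitochondrially encoded members held 6.50% of TPM in unstimulated BMDM, 4.72% in MEF and 2.85% in MAEC. The nuclear members then held 1.09% in BMDM and 1.62% in MEF. With exon length, the mitochondrial shares by library were 7.74%, 8.51% and 8.78% in BMDM, 6.04%, 7.37% and 5.58% in MEF and 3.29%, 3.57% and 4.41% in MAEC. The nuclear shares were 1.04%, 0.989% and 0.944% in BMDM, 1.52%, 1.53% and 1.46% in MEF and 2.74%, 2.71% and 3.17% in MAEC.

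For BMDM against MEF, library totals turned Cox4i1 to -0.27, Atp5g2 to -0.40, Ndufs1 to -0.00306, Sdhb to -0.37, Uqcrfs1 to -0.24 and Atp5a1 to -0.21, and moved the nuclear calls to 9 higher and 56 lower. Atp5g2 was also negative with no filter (-0.00376), with the length trend removed (-0.0759), without the third libraries at 1 h and 2 h of BMDM (-0.00589) and over libraries left out (-0.0379 to 0.0310). Sdhb turned to -0.00614 with the length trend removed and ran from -0.00218 to 0.105 over libraries left out, and Cox8a ran from -0.0930 to 0.0106. A replicate block of library codes, whose pairing the data did not bear out, turned Cox8a to 0.0709 and moved the nuclear lower calls from 31 to 23. With the block 0 members were called in the ImP comparisons.

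For MAEC against MEF, removing the length trend turned mt-Atp6 to -1.37, mt-Atp8 to -1.03, mt-Co3 to -1.58, mt-Cytb to -0.14, Cox6a2 to -0.75, Cox7a1 to -0.50, Cox7a2 to -0.14, Cox7b to -0.46, Cox8a to -0.38, Atp5g2 to -0.64, Atp5g3 to -0.14, Ndufv1 to -0.33 and Uqcrfs1 to -0.22. Library totals turned mt-Co3 to -0.15 and Ndufv1 to -0.0482, and mt-Co3 ran from -0.21 to 0.18 over libraries left out. The causes were not tested. Depth limits Cox4i2, Cox6b2, Cox7b2 and Cox8b, which held few or 0 counts in at least 1 cell type.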
